A study of Mus musculus with 12 samples.

Results

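Voltage-gated calcium channel subunits were followed in the hypothalamus of mice that drank alcohol from adolescence to adulthood. The members were Cacna1a, Cacna1b, Cacna1c, Cacna1d, Cacna1e, Cacna1g, Cacna1h, Cacnb2, Cacnb3 and Cacnb4, and every non-control probe whose gene name in the array files was one of these symbols was taken, whatever its signal. This gave 24 probes, of 41174 on the array, for 9 of the 10 genes, of 27827 gene names or accessions on the array. No probe carried the name Cacna1c, which encodes the other main neuronal L-type pore, so its level was not analysed here under that symbol.

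A voltage-gated calcium channel opens when the membrane depolarizes and lets calcium into the cell. The alpha1 subunit forms the pore and gives the channel its type: Cacna1a encodes the P/Q type and Cacna1b the N type, both of which trigger transmitter release at nerve terminals, Cacna1d an L type that opens at fairly negative voltages and is blocked by dihydropyridines, Cacna1e the R type, and Cacna1g and Cacna1h the T types, which open near rest and support burst firing. The beta subunits, encoded here by Cacnb2, Cacnb3 and Cacnb4, sit inside the cell on the pore subunit, help it reach the membrane and adjust its gating. In the hypothalamus such channels take part in the pacemaking and burst firing of neurosecretory neurons and in the release of peptides.

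All mice were male ICR, an outbred stock, and entered the experiment at 3 weeks of age, with water in both tubes up to day 5. Water-only mice then kept water in both tubes, and alcohol mice had water in one tube and 5% or 10% alcohol in the other, until sacrifice on day 51 by one of the sources and day 57 by another. Each array held hypothalamic RNA of 1 pool: 9 water mice made 3 pools of 3, and 19 alcohol mice made 9 pools of 1 to 3, 3 each from mice labelled low drinkers, early high drinkers and late high drinkers. The sample labels do not give the alcohol strength. The study's supplement lists the mice per strength under other pool names, with both strengths mixed in some pools, and it was not used here because the labels do not tie those names to the arrays. The mice within a pool share 1 value. Each of 3 slides carried 4 arrays. All water pools shared slide 1 with low drinker pool 1. The remaining low drinker pools were on slide 2 beside early high drinker pools 1 and 2, and slide 3 carried the last early high drinker pool beside all late high ones. Slide 1 was scanned on another day than slides 2 and 3, so water and alcohol could be compared within a slide only through low drinker pool 1.

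From 67.0% to 79.3% of spots per array exceeded background well, and 0 were saturated. Low drinker pool 2 stood apart in its dim spots, with a 25th percentile of intensity of 63.2 against 22.3 to 34.0 on the other 11 arrays, and it held the highest of the 12 values for 28.2% of the 29521 probes measured on all 12. Of 12 hypothalamic marker genes with a probe, 11 were well above background on all arrays, as were all 8 neuronal, 5 astrocyte, 6 oligodendrocyte and 5 microglial ones. Markers of the thalamus, which lies next to the hypothalamus, were also well above background on all arrays for 5 of 5 genes, and their summed signal (relative to the 75th percentile of the array) ran from 5.97 to 7.10 on the water arrays, from 4.73 to 10.9 in low, from 4.28 to 11.4 in early high and from 8.50 to 16.2 in late high drinkers. Anterior pituitary markers ranged from 3.25 to 12.4 on the water arrays and from 0.911 to 9.40 on the alcohol arrays, with 3 of 5 genes well above background on all arrays. In RNA of a whole tissue, fewer cells of a type and less RNA per cell cannot be told apart.

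Each value below is a log2 signal: the log2 of the background-corrected intensity of the probe minus the 75th percentile of its array. A probe below 0 was dimmer than the 75th percentile. Probes of 1 gene are numbered by their mean log2 signal over the 12 arrays, probe 1 being the brightest, and levels are compared only between arrays, never between probes, since each probe binds with its own strength. Of the 24 probes, 18 were well above background on all 12 arrays, and each of the 9 genes except Cacna1e had at least 1 such probe. Cacna1e probes 1, 2 and 3 were well above background on 9, 8 and 2 arrays, Cacna1h probe 2 on 11 and Cacna1h probe 4 on 6, and Cacna1d probe 4 on none.

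Cacna1d probes 2, 3 and 4 and both Cacna1a probes are shown here as sequences, because they read different stretches of their transcripts and gave different values. Cacna1d probe 1 is given by its position. They are the 60 bases of the array files, in lower case, 5′ to 3′ in the direction of the transcript, with positions in mm9. Cacna1d lies on the minus strand and Cacna1a on the plus strand. Cacna1d probe 3 and probe 4 read neighbouring stretches of the transcript, with 3 bases between them, and probe 4 spans 12597 bases of the genome and so crosses at least 1 intron. Cacna1a probe 1 likewise spans 1973 bases.
Cacna1d probe 2, chr14:30855472-30855531: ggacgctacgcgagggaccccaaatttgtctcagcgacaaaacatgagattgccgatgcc
Cacna1d probe 3, chr14:31009942-31010001: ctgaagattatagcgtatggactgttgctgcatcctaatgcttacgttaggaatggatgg
Cacna1d probe 4, chr14:30997342-31009938: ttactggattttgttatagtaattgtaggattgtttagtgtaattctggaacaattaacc
Cacna1a probe 1, chr8:87160594-87162566: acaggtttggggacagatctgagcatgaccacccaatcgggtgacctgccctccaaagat
Cacna1a probe 2, chr8:87141701-87141760: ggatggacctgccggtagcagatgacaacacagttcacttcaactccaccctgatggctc
Bases G and C made up 28.3% of Cacna1d probe 4, the probe with no signal well above background, and 35% of probe 1. They made up 43.3% of probe 3 and 55.0% of probe 2 and of both Cacna1a probes. Cacna1h probe 2, also at 28.3%, was well above background on 11 arrays. Cacna1d probe 1, the brightest of the gene, lies further along the transcript than probe 2, at chr14:30854355-30854414.

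**Figure D1:**
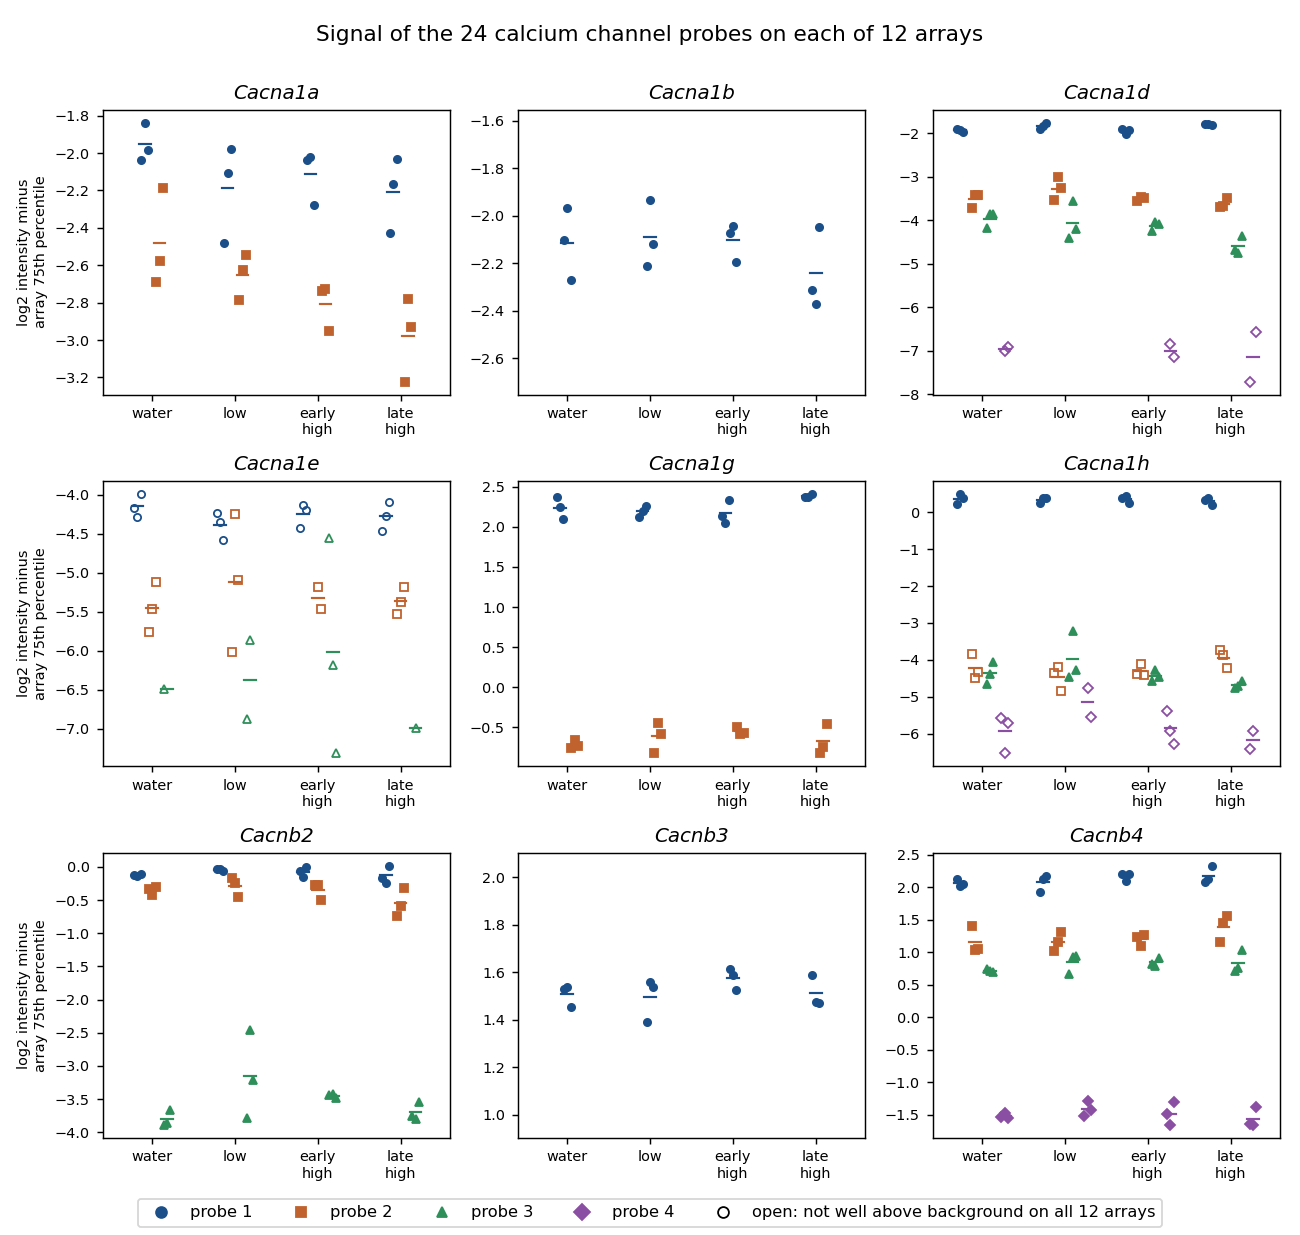
Log2 signal (log2 intensity minus the 75th percentile of the array) of each of the 24 probes on the 12 arrays, by gene and by group (water, low, early high and late high drinkers, 3 pools each), with a bar at the group mean open symbols for probes not well above background on all 12 arrays, and an own vertical range in each panel. The 12 arrays of every probe with a mean above -2 lay within 0.58 log2 units, while Cacna1h probe 3 and Cacnb2 probe 3, both dimmer than -3, had 1 low drinker pool far above the rest.

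The main question of the study was whether alcohol drinking differed from water drinking. Among the calcium channel probes, Cacna1a probe 2 alone lay at an unadjusted p under 0.05 in alcohol against water, with the lower mean in the alcohol pools, and none passed after adjustment. In the main fit the median of the probes' differences was close to that of the whole array. The medians lay further apart when blocked on slide or scan day and in some other settings, such as without the filter on dim spots (0.015 against 0.058). In limma over all 12 arrays as 2 groups, 22 of the 24 probes had values on over 50% of the arrays of both sides and were tested. Unadjusted, 1 of 22 had a p under 0.05, where 5.53% of all 32376 tested probes did. With Benjamini-Hochberg adjustment over all of them, 0 of 22 and 0% of all probes were under 0.05, with a lowest adjusted p of 0.819. The differences, alcohol minus water, were above 0 for 14 probes and below 0 for 8, with a median of 0.03, and the median over all probes tested was also 0.03. Among marker probes, 2 of 13 oligodendrocyte, 1 of 10 thalamic and 1 of 5 cortical and hippocampal ones were higher in alcohol at an unadjusted p under 0.05 and 0 were lower, and their part was not tested. Leaving out water pool 3, early high drinker pool 3 or late high drinker pool 3 left 0 of 22 probes at an unadjusted p under 0.05, and leaving out low drinker pool 2 gave 2, both lower in alcohol. With slide as a fixed block, which rests on low drinker pool 1, 18 of 22 differences were below 0, with a median of -0.11 against -0.0081 over all tested probes.

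Cacna1a, the P/Q-type pore, had the lowest difference of all members in that comparison. On its probe 2 the water arrays read -2.69, -2.58 and -2.19, the low drinkers -2.79, -2.62 and -2.55, the early high drinkers -2.74, -2.73 and -2.95, and the late high drinkers -3.22, -2.78 and -2.93. Alcohol and water arrays overlapped, since low drinker pools 2 and 3 were above water pool 1. All 3 early high and all 3 late high drinker pools lay below all 3 water pools. The difference between alcohol and water was -0.33 ± 0.14 (SE; 0.797-fold), with an unadjusted limma p of 0.034 and an adjusted p of 0.819. Enumerating the 220 possible choices of 3 arrays from 12, an exact permutation test gave a 2-sided p of 0.045 for this probe, before any correction for the 20 probes tested in this way. Of those 20 probes it was also the only one under 0.05. With 1 array left out the difference ran from -0.43 to -0.18, and it was -0.18, at an unadjusted limma p of 0.24, without water pool 3. That pool also had the highest summed anterior pituitary markers of the 12, at 12.4, and their part in the value was not tested. Within slide 1, low drinker pool 1 at -2.79 was below the 3 water pools, and the slide-blocked difference was -0.30, at an unadjusted limma p of 0.16.

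Probe 1 of Cacna1a differed in the same direction, with a mean of -1.95 ± 0.10 (SD, n = 3) on the water arrays, -2.19 ± 0.26 in low, -2.11 ± 0.14 in early high and -2.21 ± 0.20 in late high drinkers. The difference between alcohol and water of -0.22 ± 0.11 (SE) had an unadjusted limma p of 0.075, with an interval from -0.46 to 0.03 at 95% confidence. Slide changed this value, to -0.53 at an unadjusted limma p of 0.0034 when blocked on slide, which rests on low drinker pool 1, and to -0.29 at an unadjusted limma p of 0.033 with slide as a random block. Quantile normalization gave -0.25 at an unadjusted limma p of 0.032. Low drinker pool 1 was the lowest array for this probe, at -2.48.

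Cacna1b, the N-type pore, showed no difference that could be resolved. Its 1 probe, at chr2:24461997-24462055, read -2.27 to -1.97 on the water arrays and -2.37 to -1.93 on the alcohol arrays, so that the groups overlapped throughout. The alcohol minus water difference was -0.03, with a 95% interval from -0.24 to 0.17. A further probe that the array files describe as the N-type alpha 1B pore, under a transcript accession at chr2:24461423-24461482, read 1.53 to 1.65 on the water arrays and 1.43 to 1.82 on the alcohol arrays, with a difference of 0.03 ± 0.07 (SE).

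Cacna1d, the L-type pore, had probes whose differences went in opposite directions. In alcohol against water its 3 tested probes differed by 0.08 ± 0.06 (SE, probe 1), 0.05 ± 0.13 (probe 2) and -0.30 ± 0.21 (probe 3), with unadjusted limma p-values of 0.22, 0.72 and 0.17. For probe 1 the low drinkers (-1.83 ± 0.08, SD, n = 3) and the late high drinkers (-1.79 ± 0.02) were both above water (-1.93 ± 0.03) on average. For probe 3 the water arrays read -4.17, -3.86 and -3.86, the low drinkers -4.41, -3.57 and -4.20, the early high drinkers -4.24, -4.05 and -4.08, and the late high drinkers -4.68, -4.74 and -4.36. All 3 late high drinker pools thus lay below every water and every early high drinker pool, while low drinker pool 1, at -4.41, reached into their range. Against water the late high drinkers differed by -0.63 ± 0.20 (SE; 0.645-fold), with an unadjusted limma p of 0.0104 and an adjusted p of 0.185.

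The brightest Cacna1d probe went the other way in the same pools. Probe 1 read -1.90, -1.91 and -1.96 on the water arrays, -1.90, -1.83 and -1.75 in low, -1.90, -2.01 and -1.91 in early high and -1.78, -1.77 and -1.81 in late high drinkers. The late high drinker pools were all above the water and early high drinker pools but not above low drinker pool 3, within a range of 0.26 over all 12 arrays. Late high drinkers differed from water by 0.14 ± 0.06 (SE), with an unadjusted limma p of 0.034 and an adjusted p of 0.274. No slide held both late high drinker and water pools. A slide-blocked value thus links these groups through low drinker pool 1, the pools of slide 2 and early high drinker pool 3. Slide touched the 2 probes unequally: blocked on slide, the late high drinker difference from water was -1.22 for probe 3, at an unadjusted limma p of 0.022, and -0.02 for probe 1, at an unadjusted limma p of 0.90. Probe 2, which lies between them in the transcript, differed by -0.10 ± 0.13 (SE). Whether the 2 probes differ from each other in their response was not tested.

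**Figure D2:**
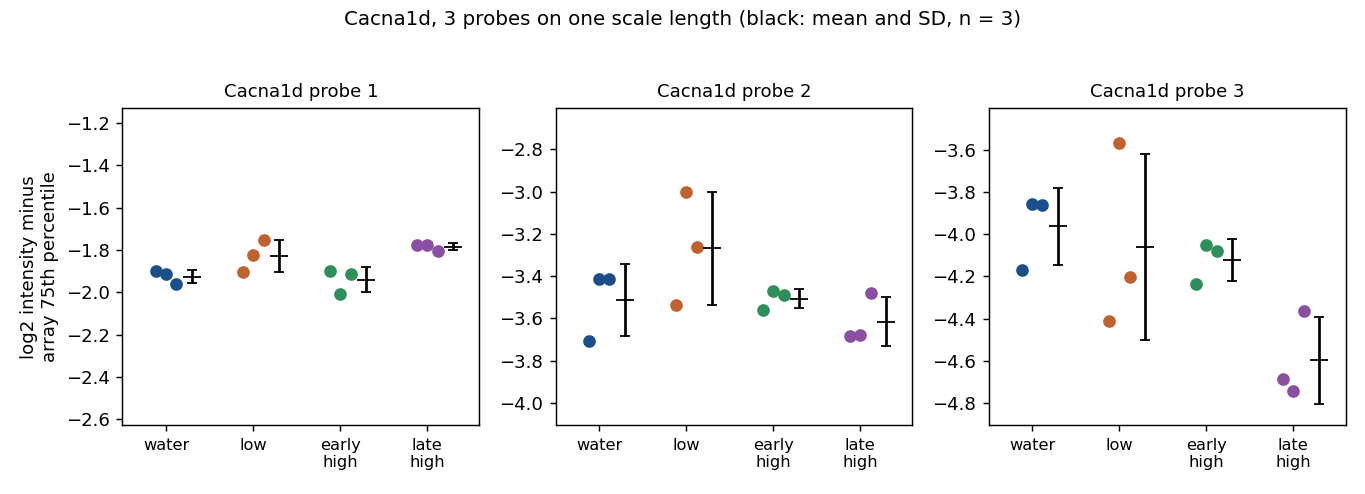
Log2 signal of Cacna1d probes 1, 2 and 3 on each array (coloured points, by group) with the group mean and SD (black, n = 3 pools), all 3 panels spanning the same number of log2 units on the vertical axis. Late high drinker pools lay above the water pools for probe 1 (-1.79 ± 0.02 against -1.93 ± 0.03) and below them for probe 3 (-4.60 ± 0.20 against -3.96 ± 0.18).

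A pair of probes named by an accession is described in the array files as a neuronal, dihydropyridine-sensitive alpha-1 subunit and placed on chromosome 6. The gene tables used here do not tie the accession to a symbol. Both were well above background on all 12 arrays. Probe 1, at chr6:118542993-118543052, differed between alcohol and water by -0.08 ± 0.07 (SE) and probe 2, at chr6:118543294-118543353, by 0.07 ± 0.07 (SE), with unadjusted limma p-values of 0.28 and 0.36.

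Cacna1e, the R-type pore, was near the limit of detection. Its brightest probe, at chr1:156240286-156240345, had intensities from 64.1 to 111 and was well above background on all water and late high drinker arrays, 2 early high drinker arrays and 1 low drinker array. It read -4.15 ± 0.15 (SD, n = 3) in water, -4.39 ± 0.18 in low, -4.25 ± 0.16 in early high and -4.28 ± 0.18 in late high drinkers. The alcohol minus water difference was -0.16, with a 95% interval from -0.38 to 0.07, against 0.19 for probe 2, whose interval ran from -0.46 to 0.84. Probe 3 had a value on only 7 arrays and was well above background only in early high drinker pools, on 2 of 3 arrays, so no fold is given for it.

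The T-type pores had bright probes. Cacna1g probe 1, at chr11:94269863-94269922, had intensities from 6646 to 9839, and Cacna1h probe 1, at chr17:25511747-25511806, from 1983 to 2391. For Cacna1g probe 1 the water arrays read 2.38, 2.25 and 2.10, the low drinkers 2.13, 2.20 and 2.26, the early high drinkers 2.14, 2.05 and 2.34, and the late high drinkers 2.37, 2.38 and 2.41. Late high drinkers were thus all above the early high drinkers, but overlapped with water through water pool 1. Alcohol against water differed by 0.01, with a 95% interval from -0.18 to 0.20. Probe 2, at chr11:94270917-94270976, differed by 0.10 ± 0.09 (SE).

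Cacna1h probe 1 varied little, from 0.20 to 0.49 over the 12 arrays. Means were 0.37 ± 0.13 (SD, n = 3) in water, 0.34 ± 0.08 in low, 0.36 ± 0.10 in early high and 0.31 ± 0.10 in late high drinkers. The alcohol minus water difference was -0.03, with a 95% interval from -0.18 to 0.12. The differences of the 3 dimmer probes of the gene ran from -0.01 to 0.19, with standard errors of 0.21 to 0.35 against 0.07 for probe 1.

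Among the beta subunits, the leading probes of all 3 genes differed between alcohol and water by less than 0.1 log2 units. Blocking on slide or scan day, which sets only low drinker pool 1 against water, turned Cacnb3 to -0.12 and Cacnb4 probe 1 to -0.14. Cacnb3, with 1 probe at chr15:98474610-98474669, read 1.51 ± 0.05 (SD, n = 3) in water, 1.50 ± 0.09 in low, 1.58 ± 0.05 in early high and 1.51 ± 0.07 in late high drinkers, and differed by 0.02, with a 95% interval from -0.10 to 0.14. Cacnb2 probe 1, at chr2:14907912-14907971, differed by 0.04 (95% interval -0.09 to 0.17), and Cacnb4 probe 1, at chr2:52289912-52289971, by 0.08 (95% interval -0.08 to 0.23). Late high drinker pool 3 was the highest of the 12 arrays for Cacnb4 probes 1, 2 and 3, at 2.33, 1.55 and 1.03.

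Cacnb4 probe 3 was the beta probe with the smallest p among those well above background. It read 0.74, 0.71 and 0.70 on the water arrays and between 0.67 and 1.03 on the alcohol arrays, with a median of 0.82. Low drinker pool 1 was below all water pools and late high drinker pool 1 lay among them. The difference of 0.12 ± 0.07 (SE) had an unadjusted limma p of 0.13 and an exact permutation p of 0.11 (2-sided).

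Each drinker group was then set against water in a fit with 4 groups, in which the 3 comparisons share the same 3 water arrays. In low drinkers, Cacnb2 probe 3 had the one difference at an unadjusted p under 0.05, as 1 of 22 probes (9.15% of all 31833 tested). After adjustment 0 of 22 passed, against 0.179% of all. This probe joins stretches of the genome at chr2:14882385-14885558. It read -3.89, -3.86 and -3.66 on the water arrays, -3.79, -2.46 and -3.21 in low, -3.43, -3.42 and -3.48 in early high and -3.75, -3.80 and -3.54 in late high drinkers. Low drinker pools 2 and 3 were the highest of the 12, and low drinker pool 1 lay among the water pools on the slide they shared. The low drinkers differed from water by 0.65 ± 0.26 (SE; 1.57-fold), with an unadjusted limma p of 0.032 and an adjusted p of 0.519. It was 0.30 without low drinker pool 2, 0.97 without low drinker pool 1 (unadjusted limma p of 0.00059, adjusted p of 0.0152) and 0.02 when blocked on slide. The count for low drinkers was 7 without low drinker pool 1, with 1 after adjustment, and 0 without water pool 1, water pool 2 or low drinker pool 3, while without low drinker pool 2 the 1 probe at an unadjusted p under 0.05 had the lower mean in low drinkers, unlike Cacnb2 probe 3. Without low drinker pool 1 the whole array also had more, 6320 of 30777 probes, with 2506 after adjustment. In that fit no slide and no scan day held both low drinker and water pools, so drinking cannot be told apart from slide and day. Blocked on slide or scan day, which sets only low drinker pool 1 against water, the count was 0 higher and 1 lower. Of 9 vascular smooth muscle marker probes, 4 were higher in low drinkers at an unadjusted p under 0.05, and their part was not tested. Scaling also moved the count: unscaled intensities gave 1 probe higher and 1 lower, and quantile normalization 1 higher and 4 lower. Over all tested probes these settings gave 2228 higher and 326 lower, and 1496 higher and 1539 lower, against 2680 and 234 in the main fit.

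Early high drinkers gave 0 of 23 probes at an unadjusted limma p under 0.05, where 4.8% of all 32398 tested probes had one, and 0 of 23 after adjustment (0% of all). The smallest p was that of Cacna1a probe 2, at 0.059 with a difference of -0.32 ± 0.15 (SE). Leaving out water pool 1, low drinker pool 2 or late high drinker pool 1 gave 1 probe. Of 6 anterior pituitary marker probes, 4 were lower at an unadjusted p under 0.05.

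Late high drinkers gave 3 of 23 probes at an unadjusted limma p under 0.05, or 1 higher and 2 lower, where 15.7% of all 32491 tested probes had one. None of the 23 passed after adjustment (0% of all). Cacna1d probes 1 and 3 were described above, and the third was Cacna1a probe 2, whose late high drinker pools, like the early high ones, lay below all water pools. Its difference was -0.49 ± 0.15 (SE, 0.710-fold), with an unadjusted limma p of 0.0085 and an adjusted p of 0.176. Linked to water only through pools of other groups, the slide-blocked difference of that probe was -0.48, at an unadjusted limma p of 0.21. The median of the 23 differences was -0.04, and that of all tested probes 0.00. Without water pool 1 the count was 6, beside 5035 of all 32263 probes. Unscaled intensities gave 2 probes higher and 2 lower, and quantile normalization 0 higher and 2 lower. Over all tested probes these settings gave 4598 higher and 893 lower, and 2362 higher and 2774 lower, against 2219 and 2885 in the main fit. Of the marker probes tested, 3 of 13 oligodendrocyte and 1 of 10 thalamic ones were higher in this group at an unadjusted p under 0.05, and 2 of 6 striatal, 2 of 6 anterior pituitary and 2 of 7 choroid plexus ones were lower. Also higher were 1 of 13 hypothalamic, 1 of 19 neuronal and 1 of 5 cortical and hippocampal ones. Another 1 of 19 neuronal and 1 of 6 cerebellar ones were lower. The summed striatal markers ran from 3.49 to 3.83 against 4.12 to 4.47 in water, and those of the choroid plexus from 2.23 to 2.49 against 2.52 to 3.32. The part of these markers in the differences was not tested.

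**Figure D3:**
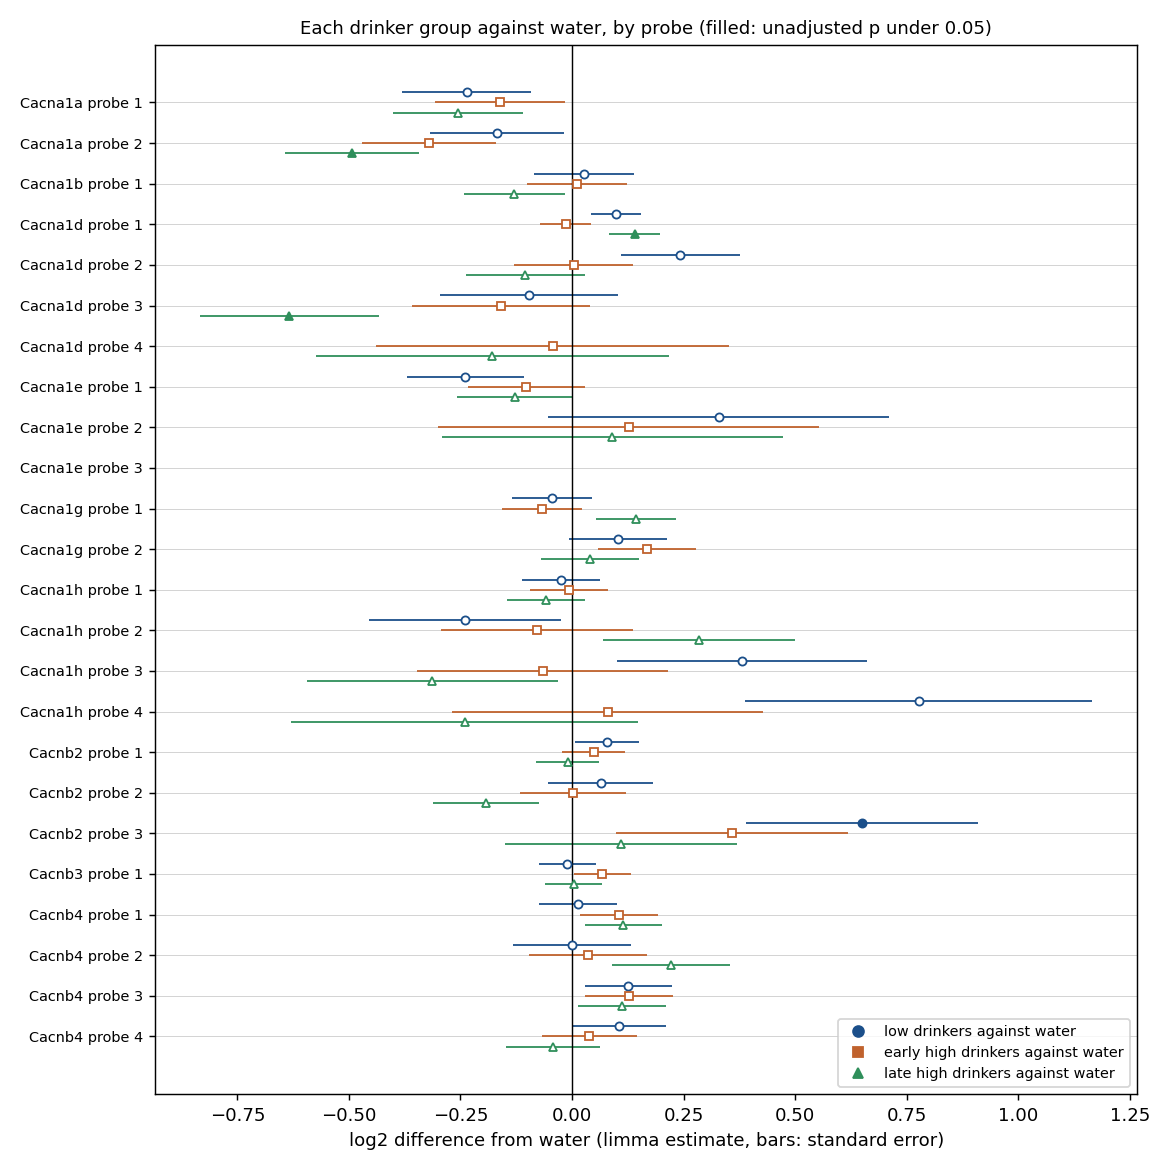
Log2 difference from water of the low (circles), early high (squares) and late high drinkers (triangles), by probe, with the standard error of the limma fit as a bar and filled symbols at an unadjusted p under 0.05 (Cacna1e probe 3, and Cacna1d probe 4 in low drinkers, were not tested). Of all differences, 4 are filled: Cacnb2 probe 3 in low drinkers (0.65) and Cacna1a probe 2 (-0.49), Cacna1d probe 1 (0.14) and Cacna1d probe 3 (-0.63) in late high drinkers.

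Setting more against less alcohol (the mean of early and late high drinkers minus low drinkers) asked whether the amount drunk went with expression. Cacna1h probes 3 and 4 and Cacna1d probe 2 had lower means in the high drinkers, whereas Cacna1h probe 2, also dim, differed by 0.34 the other way, at an unadjusted limma p of 0.097. Of 23 probes, 3 had an unadjusted limma p under 0.05, all lower with more alcohol, where 15.5% of all 32250 tested probes had one, and 0 of 23 passed after adjustment, against 0.0744% of all. Of the 5006 probes of the whole array with such a p, 3942 were also lower. The median difference was -0.06 for the 23 probes and -0.06 for all tested probes. Cacna1h probe 3, at chr17:25514210-25514269, read -4.47, -3.22 and -4.27 in low, -4.56, -4.28 and -4.46 in early high and -4.77, -4.70 and -4.57 in late high drinkers, next to -4.65, -4.38 and -4.07 on the water arrays. Low drinker pool 2 was the highest of all 12, low drinker pool 3 lay just above the highest early high drinker pool, and low drinker pool 1 lay among the early high drinkers. The difference was -0.57 ± 0.24 (SE; 0.674-fold; unadjusted limma p of 0.042, adjusted p of 0.306), and -0.19 without low drinker pool 2.

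Cacna1d probe 2 read -3.54, -3.0 and -3.26 in low, -3.56, -3.47 and -3.49 in early high and -3.69, -3.68 and -3.48 in late high drinkers. Low drinker pools 2 and 3 were the highest of these 9, and low drinker pool 1 overlapped with the high drinkers. The difference was -0.29 ± 0.12 (SE; 0.816-fold; unadjusted limma p of 0.030, adjusted p of 0.278), and -0.16 without low drinker pool 2. Cacna1h probe 4 had values on only 2 low and 2 late high drinker arrays, read -4.77 and -5.54 in low, -5.37, -5.92 and -6.27 in early high and -6.42 and -5.92 in late high drinkers, and differed by -0.86 ± 0.36 (SE; unadjusted limma p of 0.045), or by -0.44 when blocked on slide and 0.07 under quantile normalization. It was well above background on only 1 low, 1 early high and 2 late high drinker arrays, 6 of 12 with the water arrays. Among the members' probes well above background on all 12 arrays, 2 had a p under 0.05 in place of 3.

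The count of 3 depended on single arrays and on the scaling. It was 6, with 2 after adjustment (Cacnb2 probe 3 and Cacna1d probe 2), without low drinker pool 1, where 7901 of all 31195 probes had such a p and 2505 passed after adjustment. It was 0 without late high drinker pool 1, and 1 without low drinker pool 2 or 3 or without early high drinker pool 1 or 3. Without low drinker pool 2 the 1 probe at an unadjusted p under 0.05 had the higher mean with more alcohol, unlike the 3 above. Left unscaled, the intensities gave 3 probes higher with more alcohol and 0 lower (Cacnb3 probe 1, Cacnb4 probe 1 and Cacna1h probe 2), where all probes gave 3341 higher and 1803 lower. Quantile normalization gave 2 higher and 0 lower (Cacna1e probe 1 and Cacna1h probe 2), where all probes gave 2790 higher and 2214 lower. In the main fit 1064 of all probes were higher and 3942 lower at such a p. Low drinker pool 2 was the highest array for 7 of the 20 members' probes that were measured on all 12, near its 28.2% of all such probes, and the part of its raised dim signal in these differences was not tested. Marker probes with lower values at an unadjusted p under 0.05 were 4 of 6 for the anterior pituitary, 3 of 7 for the choroid plexus and 2 of 6 each for striatum and cerebellum. Also lower were 2 of 12 hypothalamic, 1 of 11 thalamic, 1 of 9 vascular smooth muscle and 1 of 5 cortical and hippocampal ones. Higher were 1 of 12 hypothalamic, 1 of 13 oligodendrocyte and 1 of 9 vascular smooth muscle ones. The part of these markers was not tested.

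**Figure D4:**
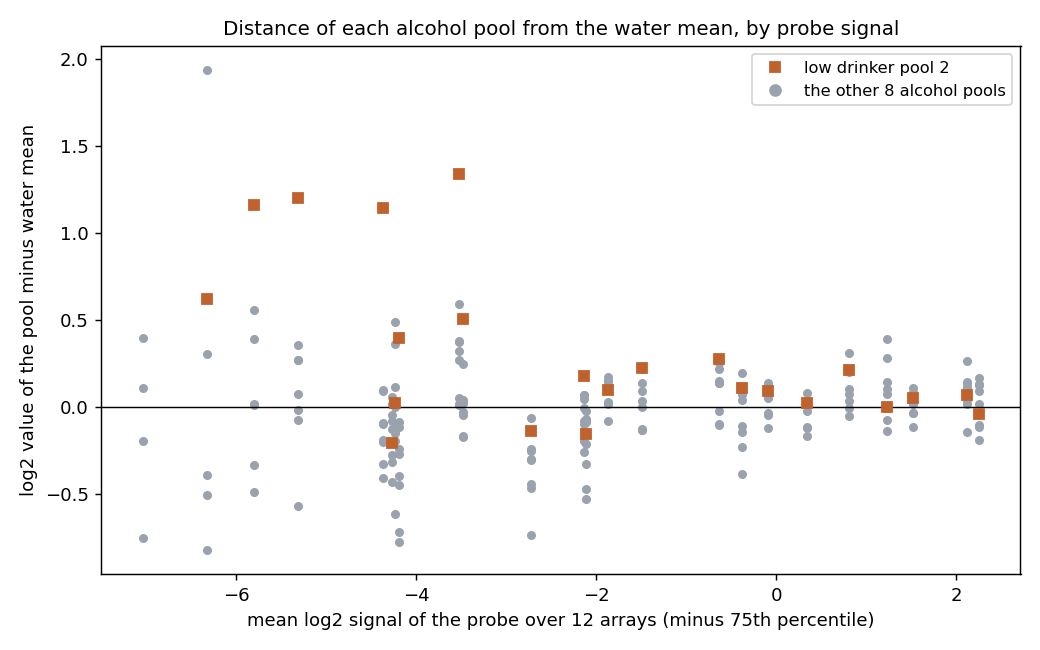
Distance of each alcohol pool from the mean of the water arrays (log2, vertical axis) for each of the 24 probes, placed by its mean log2 signal over 12 arrays (horizontal axis). Low drinker pool 2 (squares) was over 1 log2 unit above water for 4 probes dimmer than -3, and its distance from water ran from -0.15 to 0.27 over the probes brighter than -3, and the highest circle is early high drinker pool 1 for Cacna1e probe 3, whose water mean rests on 1 array.

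Late against early high drinkers asked whether the time at which drinking became high went with expression. The late high drinkers had the lower mean of Cacna1d probe 3 and the higher means of Cacna1d probe 1 and Cacna1g probe 1, but neither higher value had an unadjusted p under 0.05 when only these 6 arrays were fitted (0 higher, 3 lower) or with normexp (0 higher, 1 lower). These 3 of 23 probes had an unadjusted limma p under 0.05 (12.1% of all 33141 tested), and 0 of 23 passed after adjustment (0% of all). The differences were -0.47 ± 0.20 (SE) for Cacna1d probe 3, 0.15 ± 0.06 for Cacna1d probe 1 and 0.21 ± 0.09 for Cacna1g probe 1, with unadjusted limma p-values of 0.040, 0.023 and 0.041 and adjusted p-values of 0.394, 0.360 and 0.395. Within slide 3, early high drinker pool 3 read -4.08, -1.91 and 2.34 for these probes, above, below and below all 3 late high drinker pools of the slide, and blocking on slide gave differences of -0.52, 0.13 and 0.05, with 0 probes at an unadjusted p under 0.05. Early high drinker pool 3 and late high drinker pool 3 also had the highest summed thalamic markers, at 11.4 and 16.2, whereas early high drinker pools 1 and 2, with the lowest Cacna1g probe 1 values of the high drinkers, had 5.19 and 4.28, and the part of this in the Cacna1g difference was not tested. Of the marker probes tested, 2 of 6 anterior pituitary and 2 of 11 astrocyte ones were higher in late than in early high drinkers at an unadjusted p under 0.05, 2 of 6 striatal and 2 of 7 choroid plexus ones were lower, and of 11 thalamic ones 1 was higher and 1 lower. Their part in the 3 differences was not tested. The count was 0 without early high drinker pool 2 or late high drinker pool 2, and 1 without water pool 2 or late high drinker pool 1. Of the 23 differences, 18 were below 0, with a median of -0.08 against -0.03 over all tested probes. Unscaled, 16 of them were above 0, with 2 probes higher and 0 lower at an unadjusted p under 0.05. Over all tested probes the unscaled values gave 4334 higher and 914 lower at such a p, with a median difference of 0.12.

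Other genes of the system were counted for comparison. Of the 16 other subunits, which include the alpha2delta and gamma families, 21 probes were tested in alcohol against water, and 1 was higher and 0 lower at an unadjusted limma p under 0.05, where 5.53% of all probes had one. It was that of Cacng1, a gamma subunit best known from skeletal muscle, well above background on none of the 3 water arrays but on 4 alcohol arrays, with means of -6.61 over the 2 water and -5.57 over the 8 alcohol arrays with a value (adjusted limma p of 0.819). Low drinker pool 2 was by far the highest, at -4.04, and the other alcohol arrays with a value ran from -6.13 to -5.54, so no fold is given. In late against early high drinkers 7 of 22 probes of the other subunits were lower and 1 higher, and in late high drinkers against water 6 of 21 were lower and 1 higher, with 0 after adjustment in both. Over all tested probes 12.1% and 15.7% had an unadjusted p under 0.05 in these comparisons.

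Of 21 regulators of these channels, among them calmodulin, calcineurin, the kinases of the CaMKII family and the scaffold proteins of release sites, 34 probes were tested in alcohol against water and 0 had an unadjusted limma p under 0.05, with a median of 0.06. In late high drinkers against water 6 of the 34 were higher and 1 lower, near the 15.7% of all probes, with 0 after adjustment. Of 16 genes of calcium stores and clearance, 15 had probes, and 2 of 38 probes tested were lower in alcohol at an unadjusted p under 0.05, a share near the 5.53% of all probes. Itpr2 probe 3, for an IP3 receptor of the endoplasmic reticulum, read -5.00, -5.18 and -3.11 on the water arrays and -5.79 to -5.00 on the alcohol arrays, with a median of -5.28. It was well above background on 6 of the 9 alcohol arrays. Its difference of -0.91 ± 0.34 (SE; unadjusted limma p of 0.021, adjusted p of 0.819) came with 1 water array, pool 3, far above the others. Ryr2 probe 3, for a ryanodine receptor that releases stored calcium, exceeded background well on 2 water arrays and on no alcohol array, and no fold is given for it.

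Over the 12 arrays, the genes most like Cacna1d probe 1 among 15079 with a leading probe well above background on every array were Nufip1 (Pearson r = 0.900), Mgat4b (0.889) and 1500001A10Rik (0.886). All 12 points share the scaling of their array, and the likeness is a description of these arrays.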

How the data were processed

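Hypothalamic RNA of 12 pools was read on Agilent 1-color arrays. As deposited by the authors, each scanner file gives a linear signal intensity per spot, background-corrected by Agilent Feature Extraction (10.5.1.1 per the file headers), with no scaling between arrays. Their deposited table of intensity per probe was used as an alternative. From these deposited intensities, log2 values were computed and centred on each array's 75th percentile (43379 spots, controls excluded). Spots were dropped where flagged as non-uniform or where signal was less than 2 times noise. Replicate spots were averaged per probe, and probes with values on over 50% of the arrays of each side were tested with limma 3.58.1 in R 4.3.3 (lmFit, eBayes, Benjamini-Hochberg over all probes tested). Every member probe is described. A leading probe is the one with the highest mean over 12 arrays, and in each comparison all probes at an unadjusted p under 0.05 are given. Members, lists and tests were chosen with earlier results of these data known. Replicate numbers did not pair the pools: same-numbered pools deviated together with correlations of -0.09 to 0.18. The number of arrays limits the precision. The steps were tested on simulated data. Positions are those of mm9 in the array files. Alternatives covered background correction, scaling, filters, slide, scan day, the replicate number, the test and each array left out. Figures were drawn with matplotlib 3.10.9.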

Additional observations from a re-analysis of the deposited data

Results flagged for a closer look

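In 2 of 24 member probes 1 of the 9 alcohol arrays lay far from the others, with a gap to the nearest array that was large for the range (Dixon's rule, which flags about 1 group in 20 by chance). Both were low drinker pool 2. For Cacna1h probe 3 it read -3.22, with the nearest alcohol array at -4.27, and for Cacnb2 probe 3 it read -2.46, with the nearest at -3.21. The 25th percentile of intensity of that array was 63.2.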

How the results depend on the processing

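In alcohol against water the count of 1 member probe at an unadjusted p under 0.05 was 3 under quantile normalization (1983 of all 32376 probes) and 0 to 2 with 1 array left out. More against less alcohol, with 3, gave 7 with normexp (6945 of all 32250 probes), 1 with the methods' t-test (3281 of all), and 0 to 6 (adjusted 0 to 2) with 1 array left out. With scan day as a block it gave 6 (8431 of all), and 2 after adjustment (2927 of all). That block takes low drinker pool 1 out of this comparison, so it is not a separate check from leaving that pool out. Late against early, with 3, gave 1 with normexp (4229 of all 33141 probes), 0 with slide as a fixed block (1566 of all) and 1 as a random block (3305 of all), and 0 to 4 with 1 array left out. Low drinkers against water, with 1, gave 2 unscaled (2554 of all 31833 probes), 5 with quantile normalization (3035 of all) and 3 with normexp (3650 of all). They gave 0 with slide as a random block (1971 of all) or with only their own arrays (1572 of all). With slide or scan day as a fixed block they gave 1 in the other direction (993 and 1067 of all), and 0 to 7 (adjusted 0 to 1) with 1 array left out. Early high drinkers, with 0, gave 1 unscaled (1133 of all 32398 probes), 2 with quantile normalization (1624 of all) and 1 with normexp (1378 of all). They gave 1 with slide (2297 of all) and 2 with scan day as a block (2638 of all), 2 with only their own arrays (3562 of all), and 0 to 1 with 1 array left out. Late high drinkers, with 3, gave 1 with slide (2557 of all 32491 probes) and 7 with scan day as a block (5403 of all), and 2 to 6 with 1 array left out. The replicate block gave 1, 3, 2, 1, 0 and 2 in the same order and ended no adjusted call, since there was none. Directions in alcohol against water reversed with slide or scan day as a fixed block for Cacna1g (-0.11), Cacnb3 (-0.12) and Cacnb4 (-0.14) probe 1, and with slide as a random block for Cacna1g (-0.019) and Cacnb3 (-0.012). With either fixed block only low drinker pool 1 is set against water, so both blocks give the same value. With 1 array left out, the range crossed 0 for Cacna1b (-0.11 to 0.041), Cacna1g (-0.060 to 0.078), Cacna1h (-0.096 to 0.031) and Cacnb3 (-0.0059 to 0.037). Another probe of the gene had the opposite sign to probe 1 for Cacna1d (-0.30), Cacna1e (0.19), Cacna1h (0.00087 and 0.19) and Cacnb2 (-0.042). Cacna1h probe 4, more against less alcohol, became 0.070 under quantile normalization, and Cacna1d probe 1, late high drinkers against water, -0.018 with slide as a fixed block. Leaving out low drinker pool 2 or 3 left too few arrays to fit Cacna1h probe 4 there. The cause of these shifts was not tested. Of 515 alternative values of 20 named differences, 489 kept their direction and side of the adjusted threshold, 23 reversed and 3 came to pass adjustment. No named difference passed in the main fit, so the side could change only toward passing. Some left-out arrays also did not enter the difference in question.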
